A study of Solanum lycopersicum with 4 samples.

Results

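The genes described here stood far higher in 1 RNA-seq library of tomato (Solanum lycopersicum) inflorescence tissue than in the 3 others. A gene was a member when it had at least 20 counts per 1000000 assigned reads (CPM) in 156OE replicate 2 and there at least 5 times its highest CPM in the remaining libraries. This rule kept 136 of 33976 genes (0.400%). Since the other library of the same genotype is among those the rule sets 156OE replicate 2 against, the members describe variation between libraries within 156OE and not an effect of the genotype. The members were chosen by their CPM in all 4 libraries, so their height in 156OE replicate 2 is a description and carries no test.

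The series holds 2 libraries labelled 156OE, made from plants of MT that overexpress miR156, and 2 libraries labelled MT, short for Micro-Tom, a dwarf tomato cultivar. All were total RNA from floral apices pooled with flower buds that had not opened. The labels give neither plant age, promoter, number of transgenic lines nor hormone treatment, and do not say whether replicates came from separate plants, so any p-value measures only the spread between these libraries, which may be technical. The study concerns gibberellin and the miR156 module in the floral meristem and in the patterning of the fruit.

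Plants answer wounding, chilling, drought and attack within minutes to hours by switching on a small set of genes for transcription factors, protein kinases and hormone enzymes. Jasmonate, a hormone made from membrane lipids, is one of the main signals: on its perception, JAZ repressor proteins are degraded, transcription factors such as MYC2 are freed, and the JAZ genes themselves are transcribed anew. Factors of the ERF, WRKY, NAC and CBF families carry much of the rest of the early response, in flowers as in leaves.

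Library size differed with the library that defines the members. Salmon assigned 1685657 reads in 156OE replicate 2, 8440384 in 156OE replicate 1, 11203505 in MT replicate 1 and 9369713 in MT replicate 2. At these depths 20 CPM equals 33.7 reads in 156OE replicate 2 and 224 reads in MT replicate 1, and the 3-read floor lies at 1.78 CPM in 156OE replicate 2, 0.355 in 156OE replicate 1, 0.268 in MT replicate 1 and 0.320 in MT replicate 2. The part of depth in the members' values was not tested. The miR156 label was checked on SBP3 (Solyc10g009080), a member of the SBP-box family that miR156 targets, which had 2.37 and 8.29 CPM in 156OE replicates 2 and 1, against 28.3 and 23.2 CPM in MT replicates 1 and 2. SPL-CNR (Solyc02g077920), of the same family, had no reads and 4.74 CPM in 156OE replicates 2 and 1, against 4.73 and 6.62 CPM in MT replicates 1 and 2, so it was not clearly lower in 156OE replicate 1. Both IDs were chosen after the members were seen, and SBP3 rested on 4 reads in 156OE replicate 2. Floral organ identity genes of the MADS-box family were detected in every library, as fits the labelled tissue, but their summed level over 8 listed IDs was 190 CPM in 156OE replicate 2 and 400 CPM in 156OE replicate 1, against 289 and 291 CPM in MT replicates 1 and 2. This list of IDs was written after the members were seen, and 5 of the 8 had a symbol that passed the check described below. Solyc05g056620, which did not pass, had 99.1 and 129.9 CPM in 156OE replicates 2 and 1, against 133.7 and 124.7 CPM in MT replicates 1 and 2. It thus gave a large part of the sum in 156OE replicate 2. There TPI and AG1 had 5 reads each and TAGL1 had 2.03. All 8 were lower in 156OE replicate 2 than in 156OE replicate 1, where 67.6% of all tested genes were lower. Their median log2(CPM + 1) difference from the MT mean was -0.9978 in 156OE replicate 2 and 0.6393 in 156OE replicate 1. Over all tested genes these medians were -0.1886 and -0.0049. In bulk tissue, fewer cells of a type and less RNA per cell cannot be told apart. The part of tissue makeup in the members' values was not tested.

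No other library had a comparable set of genes to itself. The same rule with 156OE replicate 1 in the high place kept 5 genes, and with MT replicate 1 or MT replicate 2 in that place it kept 0. Lowering the ratio to 3 gave 251 genes for 156OE replicate 2, 17 for 156OE replicate 1 and 0 for each MT library. At a ratio of 10, 62 genes remained for 156OE replicate 2 and none for the others. The 5 genes that stood out in 156OE replicate 1 had between 37.0 and 142.9 CPM there and at most 19.0 CPM in 156OE replicate 2. The mirror rule, which takes genes with at least 20 CPM in 3 libraries, each at least 5 times the remaining one, kept 2 genes low in 156OE replicate 2 and 3 low in 156OE replicate 1.

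**Figure D1:**
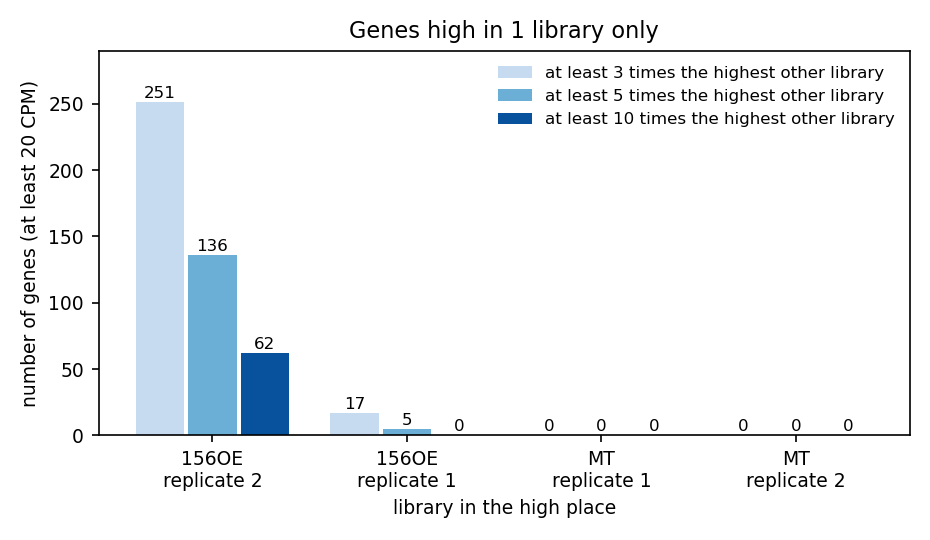
Number of genes with at least 20 CPM in 1 library and at least 3, 5 or 10 times the highest of the other 3 there (bar shades), by the library in the high place. 156OE replicate 2 had 251, 136 and 62 such genes, 156OE replicate 1 had 17, 5 and 0, and both MT libraries had 0 at every ratio.

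The members made up 2.94% of all assigned reads in 156OE replicate 2 and 0.141% in 156OE replicate 1, against 0.310% and 0.168% in MT replicates 1 and 2. The median member had 64.5 CPM in 156OE replicate 2 and 3.97 CPM in 156OE replicate 1, against 6.07 and 3.90 CPM in MT replicates 1 and 2. In all 3 other libraries 88 members stayed under 10 CPM and 51 under 5 CPM, and 15 members reached 20 CPM in all 4. No reads were counted for 6 members in 156OE replicate 1, for 1 in MT replicate 1 and for 14 in MT replicate 2.

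One member took a large part of the summed level. It lies on chromosome 2, has no checked symbol, and had 11029 CPM in 156OE replicate 2 and 115 CPM in 156OE replicate 1, against 990 and 328 CPM in MT replicates 1 and 2. Its reads alone were 1.10% of 156OE replicate 2. Without it the other members still made up 1.84% of that library and 0.130% of 156OE replicate 1, against 0.211% and 0.136% of MT replicates 1 and 2, so 156OE replicate 2 remained the high library by a wide margin.

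The ratio of 156OE replicate 2 to the highest other library had a median of 9.34, with quartiles at 6.59 and 15.97 and a maximum of 240. In 25 members it was at least 20, and 45 members exceeded 100 CPM. There was no gap at the threshold: the 3 members nearest to it had ratios of 5.001, 5.08 and 5.09, the 3 genes just outside had ratios of 4.996, 4.97 and 4.93, and 115 genes had ratios between 3 and 5. The members nearest to the CPM minimum had 20.2, 20.7 and 20.8 CPM, and the genes just under it with a ratio over 5 had 19.6, 19.0 and 17.8 CPM. An exact 95% Poisson interval on the reads of 156OE replicate 2 covers counting error in that library only and takes the others as fixed. Its lower bound was at least 5 times the highest other library for 111 of 136 members. That bound was above the highest other library for all 136, which the minimum and ratio of the rule made certain.

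**Figure D2:**
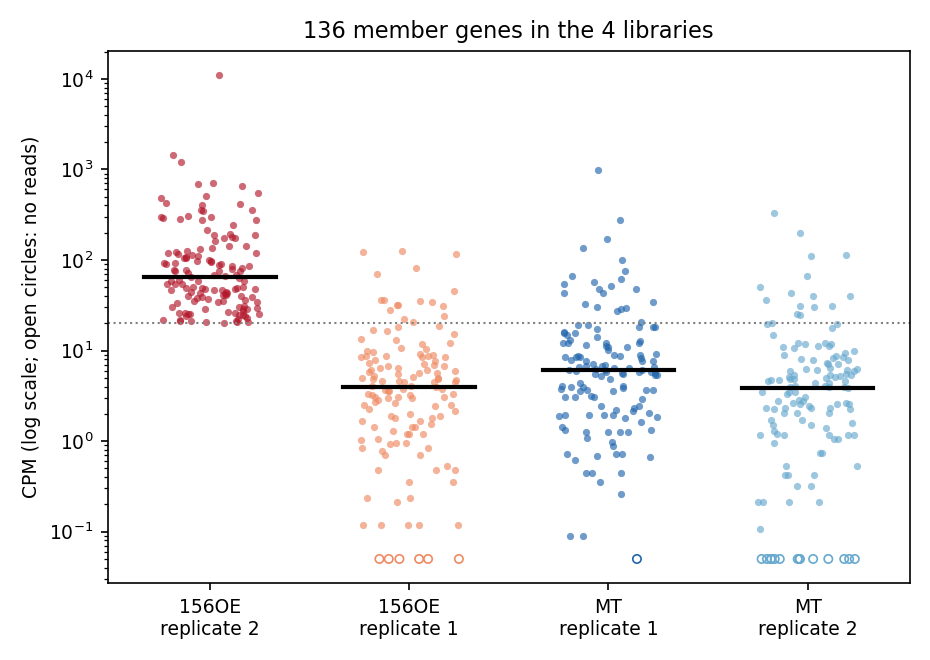
CPM (log axis) of the 136 members in each library, 1 point a gene. Black bars are medians (64.5, 3.97, 6.07 and 3.90 CPM from left to right), the dotted line marks the 20 CPM of the rule, and open circles at the bottom are genes with no reads (0, 6, 1 and 14).

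Of the members, 14 had a gene symbol that passed a check of chromosome and gene order against the RefSeq table. Of the 122 others, 8 were on a recalled list without a symbol that passed, and the rest were never paired with a symbol. Roles are described for the 14, together with the highest-ranked members that have an ID only. Symbols were recalled from chosen lists, mostly of stress and hormone genes. Those of ERF-D3, ERF-D4, ERF-F4, ERF3, JRE2 and SRG2 were added after the members were seen. The roles of the 14 thus do not show what the members as a whole encode. The check cannot tell a gene from those next to it, so symbols are less certain than the IDs.

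The named jasmonate genes among the members are AOS, at an early step of synthesis, and JAZ2, a repressor of signalling. AOS (Solyc04g079730, chromosome 4) encodes allene oxide synthase, which commits fatty acid hydroperoxides to jasmonate. It had 131.7 CPM in 156OE replicate 2 and 6.75 CPM in 156OE replicate 1, against 1.25 and 2.45 CPM in MT replicates 1 and 2. JAZ2 (Solyc12g009220, chromosome 12), a JAZ repressor, had 279 CPM in 156OE replicate 2 and 34.6 CPM in 156OE replicate 1, against 28.7 and 19.4 CPM in MT replicates 1 and 2. In both genes 156OE replicate 1 was the next highest library, 19.5 times lower than 156OE replicate 2 for AOS and 8.07 times lower for JAZ2. The other listed AOS genes were not members. AOS2 had 32.6 and 49.1 CPM in 156OE replicates 2 and 1, against 42.1 and 41.4 CPM in MT replicates 1 and 2. AOS3 had 4.15 and 3.91 CPM in 156OE replicates 2 and 1, against 0.446 and 0.107 CPM in MT replicates 1 and 2.

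ERF transcription factors of several subfamilies were among the members. ERF-D3 (Solyc01g108240, chromosome 1), of subfamily D, had 94.4 CPM in 156OE replicate 2 and 0.119 CPM, a single read, in 156OE replicate 1, against 0.446 CPM (5 reads) and no reads in MT replicates 1 and 2. Of all members it ranked at the top when 1 CPM was added to both sides of the ratio. ERF-D4 (Solyc10g050970, chromosome 10), of the same subfamily, had 48.1 CPM in 156OE replicate 2 and 0.355 CPM in 156OE replicate 1, against 0.714 CPM and no reads in MT replicates 1 and 2. Both were thus near or under the 3-read floor outside 156OE replicate 2, apart from MT replicate 1, where they had 5 and 8 reads.

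Subfamily F, which in tomato includes transcriptional repressors, gave 2 members at a higher level. ERF-F4 (Solyc07g053740, chromosome 7) had 428 CPM in 156OE replicate 2 and 45.7 CPM in 156OE replicate 1, against 61.7 and 30.5 CPM in MT replicates 1 and 2. ERF3 (Solyc10g009110, chromosome 10) had 74.96 CPM in 156OE replicate 2 and 5.69 CPM in 156OE replicate 1, against 8.66 and 3.52 CPM in MT replicates 1 and 2. In each gene both MT values lay around that of 156OE replicate 1, with MT replicate 1 above it and MT replicate 2 below it. JRE2 (Solyc01g090310, chromosome 1), one of a cluster of jasmonate-responsive ERF genes, had 30.3 CPM in 156OE replicate 2 and 0.355 CPM in 156OE replicate 1, against 1.25 and 0.320 CPM in MT replicates 1 and 2.

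The relatives of these ERFs did not all share the pattern. These subfamily lists were written after the members were seen and are given only to place them. Of 8 listed subfamily D genes, 2 were members, and 3 had no reads in 156OE replicate 2. Of 7 listed subfamily F genes, 2 were members, while ERF7, the non-member with the highest level, had 172 and 177 CPM in 156OE replicates 2 and 1, against 184 and 134 CPM in MT replicates 1 and 2. In the JRE cluster JRE2 was the member among 5 genes. JRE1 and JRE3, the IDs on either side of it, also passed the ratio of 5 but not the minimum of 20 CPM. JRE1 had 8.31 and 0.948 CPM in 156OE replicates 2 and 1, against 1.34 and 0.854 CPM in MT replicates 1 and 2, and JRE3 had 3.56 and 0.118 CPM in 156OE replicates 2 and 1, against 0.0893 and 0.213 CPM in MT replicates 1 and 2. JRE4, a regulator of steroidal glycoalkaloid synthesis, had 18.4 and 43.2 CPM in 156OE replicates 2 and 1, against 31.0 and 20.1 CPM in MT replicates 1 and 2. Unlike them, JRE4 had no high value in the library where JRE2 had its highest.

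Further transcription factors among the members belong to the WRKY, NAC and CBF families, known for early roles in defence and abiotic stress. WRKY6 (Solyc02g080890, chromosome 2) had 78.3 CPM in 156OE replicate 2 and 3.55 CPM in 156OE replicate 1, against 1.79 and 0.427 CPM in MT replicates 1 and 2. WRKY31 (Solyc06g066370, chromosome 6) had 105.6 CPM in 156OE replicate 2 and 8.77 CPM in 156OE replicate 1, against 18.1 and 11.8 CPM in MT replicates 1 and 2. The order of the 156OE replicate 1 and MT values was thus opposite in these WRKY genes. NAC1 (Solyc04g009440, chromosome 4), induced by pathogens, had 175.9 CPM in 156OE replicate 2 and 13.5 CPM in 156OE replicate 1, against 8.75 and 8.54 CPM in MT replicates 1 and 2. CBF1 (Solyc03g026280, chromosome 3), a cold-induced factor, had 26.8 CPM in 156OE replicate 2 and no reads in 156OE replicate 1, against 1.83 and 0.213 CPM in MT replicates 1 and 2. Among the named members CBF1 was the lowest in 156OE replicate 2, with an exact 95% Poisson interval of 19.5 to 35.8 CPM that covers counting error only.

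MPK3 (Solyc06g005170, chromosome 6) encodes a mitogen-activated protein kinase that is activated on wounding and pathogen attack. It had 660 CPM in 156OE replicate 2 and 28.1 CPM in 156OE replicate 1, against 66.0 and 40.04 CPM in MT replicates 1 and 2, so the lowest value of this gene was also in a 156OE library. NCED1 (Solyc07g056570, chromosome 7), which encodes the carotenoid-cleaving enzyme that limits abscisic acid synthesis, had 71.2 CPM in 156OE replicate 2 and 6.398 CPM in 156OE replicate 1, against 7.94 and 7.15 CPM in MT replicates 1 and 2. The 3 lower libraries lay close together for NCED1. They did not for SRG2 (Solyc07g040960, chromosome 7), which had 298 CPM in 156OE replicate 2 and 1.18 CPM in 156OE replicate 1, against 32.4 and 2.35 CPM in MT replicates 1 and 2. The MT libraries differed 13.8 times from each other in SRG2, more than in any other named member for which that ratio could be given.

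A pair of the top-ranked members have an ID only. Solyc08g008280 (chromosome 8) had 191 CPM in 156OE replicate 2 and 2.49 CPM in 156OE replicate 1, against 3.66 and 2.67 CPM in MT replicates 1 and 2. Solyc08g007820, also on chromosome 8, had 54.0 CPM in 156OE replicate 2 and no reads in 156OE replicate 1, against 0.357 CPM (4 reads) and no reads in MT replicates 1 and 2. Per transcript length, on the TPM scale, the highest of the 14 named members in 156OE replicate 2 were ERF-F4 at 844, JAZ2 at 475 and MPK3 at 454 TPM, and the lowest was CBF1 at 36.9 TPM.

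**Figure D3:**
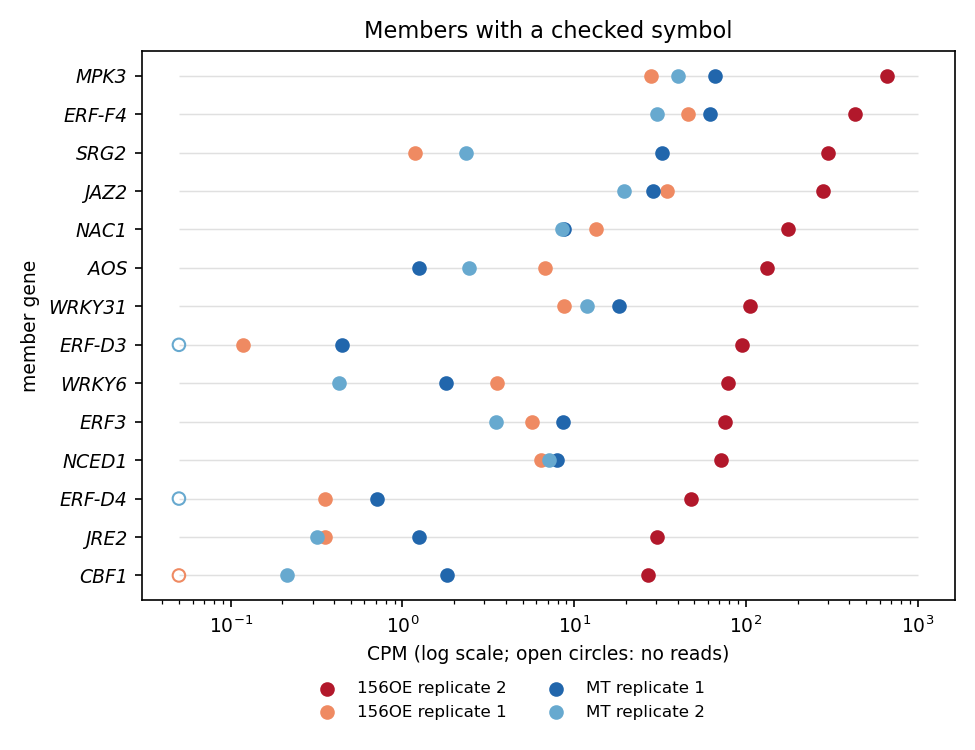
CPM (log axis) of the 14 members with a checked symbol, 1 colour a library, ordered by the level in 156OE replicate 2. Open circles mark no reads. Every gene has 156OE replicate 2 at the right, from CBF1 at 26.8 to MPK3 at 660 CPM, while the other 3 libraries change order from gene to gene.

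The members were counted on 14 gene lists recalled from published tomato nomenclature. The rapid stress list, which holds WRKY, CBF, NAC and zinc finger factors and MPK3, had 9 members among 22 IDs. The jasmonate perception and repressor list had 4 among 19, and the list of jasmonate synthesis and turnover 2 among 15. The abscisic acid list had 1 among 15, where 0.400% of all genes were members. Of these list members only 5, 1, 1 and 1 had a symbol that passed the check, and the others, Solyc08g008280 among them on the rapid stress list, were placed by recalled IDs alone. The lists were chosen with earlier results of these libraries known and are not independent evidence. Levels of the rapid stress genes were highest in 156OE replicate 2 for 20 of the 22 IDs, against 21.9% of all tested genes, and their summed level was 2386 CPM in 156OE replicate 2 and 140 CPM in 156OE replicate 1, against 378 and 221 CPM in MT replicates 1 and 2. The median log2(CPM + 1) difference of this list between 156OE replicate 2 and 156OE replicate 1 was 3.70, where that of all tested genes was -0.18. The 9 members are part of this count, sum and median, and the rule makes them highest in 156OE replicate 2.

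The highest non-member of each of these lists is given to place the members, where its symbol passed the check. That of the abscisic acid list did not pass. WRKY41, the highest non-member of the rapid stress list, had 252 CPM in 156OE replicate 2 and 28.2 CPM in 156OE replicate 1, against 56.7 and 28.5 CPM in MT replicates 1 and 2. SLJAZ3, a JAZ gene on the perception and repressor list, had 371 CPM in 156OE replicate 2 and 78.4 CPM in 156OE replicate 1, against 72.3 and 73.0 CPM in MT replicates 1 and 2. The lipoxygenase gene loxD, at the entry of jasmonate synthesis, had 1301 CPM in 156OE replicate 2 and 363 CPM in 156OE replicate 1, against 391 and 401 CPM in MT replicates 1 and 2. Of 15 jasmonate synthesis and turnover IDs, 6 were highest in 156OE replicate 2, 2 of them members, where 21.9% of all tested genes were highest. Lower there than in 156OE replicate 1 were 9, where 67.6% of all tested genes were lower. Of 19 perception and repressor IDs, 11 were highest in 156OE replicate 2, 4 of them members, beside the same share. The rule makes members highest there. Some of the 11 were so by little: JA2 had 1 read there, and Solyc12g049400 had 20.2 CPM there and 19.4 CPM in MT replicate 2. Of the 19, 5 were lower in 156OE replicate 2 than in 156OE replicate 1.

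Other stress and hormone lists held no member, which at 0.400% of all genes says little of lists this short. Wound and anti-herbivore proteins, such as proteinase inhibitors, are known as later products of jasmonate signalling. None of their 19 IDs was a member, and 14 of them were lower in 156OE replicate 2 than in 156OE replicate 1, where 67.6% of all tested genes were. The lists of ethylene response factors (11 IDs), ethylene synthesis (11), heat shock (12), circadian clock (10) and pathogenesis-related and phenylpropanoid genes (14) also had none. The ethylene-forming oxidase gene ACO1 had 79.4 CPM in 156OE replicate 2 and 7.56 CPM in 156OE replicate 1, against 18.4 and 13.7 CPM in MT replicates 1 and 2, and the defence factor PTI4 had 42.7 CPM in 156OE replicate 2 and 9.61 CPM in 156OE replicate 1, against 14.6 and 9.52 CPM in MT replicates 1 and 2. The symbol PAL5, of an enzyme that opens the phenylpropanoid pathway, matched 2 neighbouring IDs. Of these, Solyc09g007920 had 2698 and 2678 CPM in 156OE replicates 2 and 1, against 2016 and 2246 CPM in MT replicates 1 and 2, and Solyc09g007910 had 409 and 98.3 CPM in 156OE replicates 2 and 1, against 121.1 and 131.2 CPM in MT replicates 1 and 2. The summed level of the heat shock list was 742 and 720 CPM in 156OE replicates 2 and 1, against 851 and 917 CPM in MT replicates 1 and 2.

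None of the 4 lists of other-tissue markers had its highest sum in 156OE replicate 2. On the trichome list and the pollen and tapetum list, most of the sum came from 1 ID without a checked symbol. Solyc02g080260 (trichome) had 93.1 and 91.8 CPM in 156OE replicates 2 and 1, against 107.1 and 111.7 CPM in MT replicates 1 and 2. Solyc02g065580 (pollen) had 30.3 and 36.5 CPM, against 33.7 and 31.9 CPM, in the same order. Those sums thus say little of these tissues. The leaf photosynthesis list of 13 IDs summed to 3155 and 4219 CPM in 156OE replicates 2 and 1, against 3264 and 3596 CPM in MT replicates 1 and 2, with none at 0 in any library. One of its IDs, RBCS3, was highest in 156OE replicate 2, with 472 and 233 CPM in 156OE replicates 2 and 1, against 136.5 and 131.4 CPM in MT replicates 1 and 2. The glandular trichome list of 7 IDs summed to 93.7 and 92.7 CPM in 156OE replicates 2 and 1, against 108.6 and 113.1 CPM in MT replicates 1 and 2, with 5 IDs at 0 in 156OE replicate 2, 3 in 156OE replicate 1, and 2 and 4 in MT replicates 1 and 2. The pollen and tapetum list of 8 IDs summed to 32.8 and 40.6 CPM in 156OE replicates 2 and 1, against 42.1 and 38.9 CPM in MT replicates 1 and 2, with 5 IDs at 0 in 156OE replicate 2 and 3 at 0 in each other library. None of these IDs was a member, and neither was any of 8 ripening fruit IDs, which summed to 57.5 and 78.7 CPM in 156OE replicates 2 and 1, against 59.3 and 67.5 CPM in MT replicates 1 and 2, with 2 at 0 in every library.

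**Figure D4:**
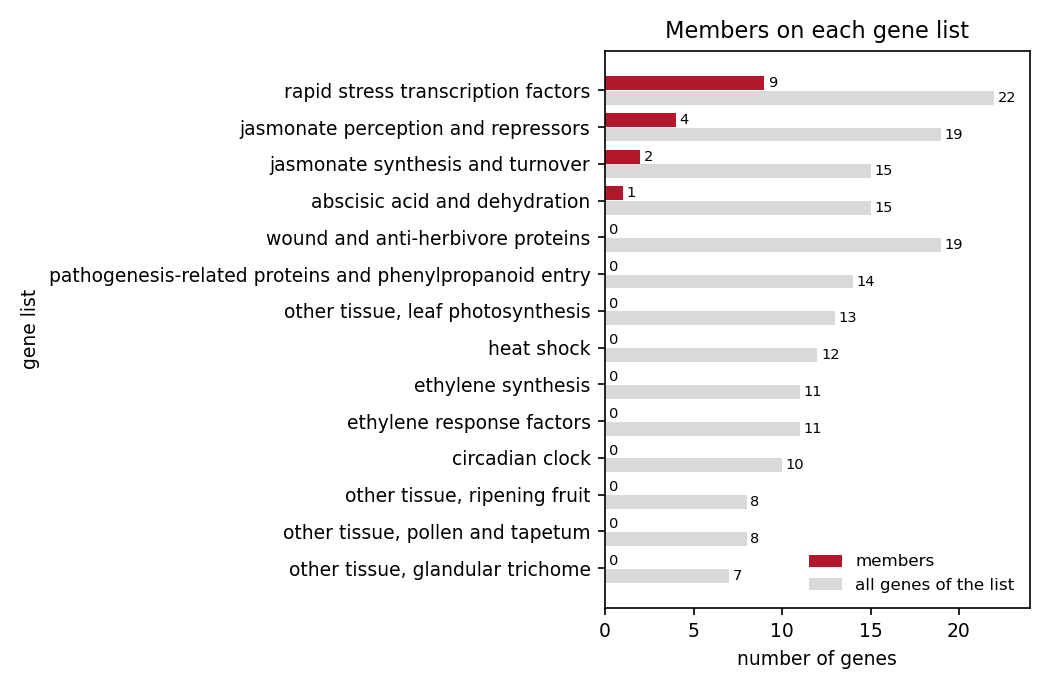
Number of members (red) and of all IDs in the files (grey) on each of the 14 lists. Members fall on the lists of rapid stress factors (9 of 22) and jasmonate perception and repressors (4 of 19). They also fall on those of jasmonate synthesis and turnover (2 of 15) and abscisic acid (1 of 15), with none on the other 10.

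The rule caps the 3 other libraries but does not set their order, and in that order MT replicate 1 came next. MT replicate 1 was above MT replicate 2 in 123 of 136 members, where this held for 50.8% of the 18385 genes that passed the low-count filter. On the log2(CPM + 1) scale the median difference between MT replicate 1 and MT replicate 2 was 0.53 (quartiles 0.18 and 0.86) over the members and 0.00 over all tested genes. In 51 members MT replicate 1 had at least 2 times the level of MT replicate 2, and in 2 members the opposite held. Of the 14 named members, 13 had the higher MT value in replicate 1, the exception being AOS. The MT libraries thus had unequal values in most members, at a much smaller size than the gap to 156OE replicate 2.

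The next highest library after 156OE replicate 2 was MT replicate 1 for 97 members (71.3%), 156OE replicate 1 for 34 (25%) and MT replicate 2 for 5 (3.68%). Among the 4028 tested genes with their highest value in 156OE replicate 2 these shares were 35.8%, 43.8% and 20.4%. The lowest library was MT replicate 2 for 70 members and 156OE replicate 1 for 52. The 2 libraries of each genotype therefore did not line up: for most members the order ran from 156OE replicate 2 through MT replicate 1 to the remaining library of each genotype.

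**Figure D5:**
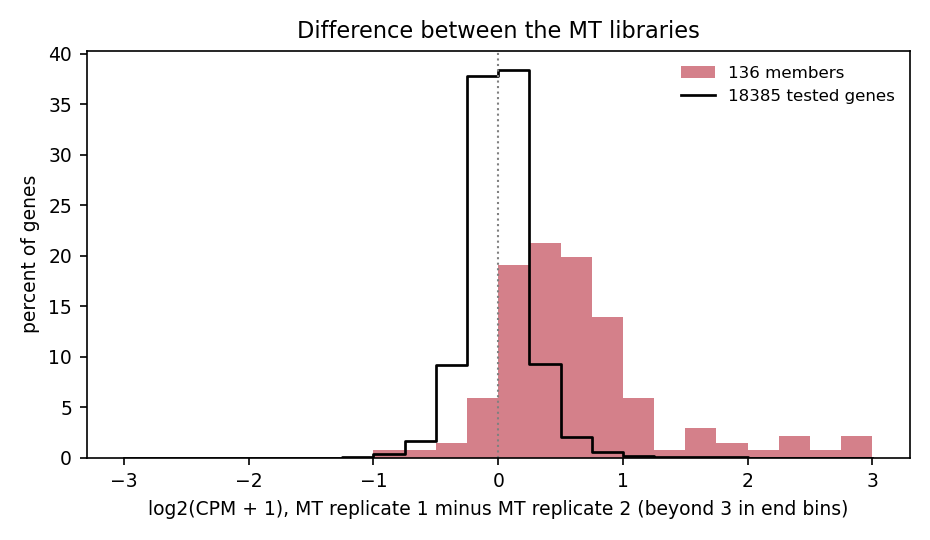
Distribution of the difference in log2(CPM + 1) between MT replicate 1 and MT replicate 2, in percent of genes, for the 136 members (red bars) and the 18385 tested genes (black line). The members' median is 0.53, to the right of that of all tested genes at 0.00.

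Against MT, 156OE replicate 1 showed no common direction over the members. The median log2(CPM + 1) difference between 156OE replicate 1 and the MT mean was -0.16 (quartiles -0.68 and 0.16), where that of all tested genes was -0.00. Its sign depended on the MT library used, at 0.10 against MT replicate 2 alone and -0.44 against MT replicate 1 alone. In an edgeR quasi-likelihood fit of 156OE replicate 1 against both MT libraries, in which the lone 156OE library is assumed to vary like the MT libraries, 5 of 124 tested members were called higher (4.03%) and 14 lower (11.3%) at an adjusted p under 0.05, beside background shares of 3.45% higher and 2.28% lower. AOS was among those higher, at a log2 change of 1.89 ± 0.41 (SE), and MPK3 among those lower, at -0.92 ± 0.24. These calls describe libraries that the rule had capped.

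With 2 libraries a genotype, the test of 156OE against MT gave the members no call. The edgeR fit called 0 of the 125 members that passed its filter, in either direction, beside a background of 0.00544% of 18385 genes higher and 0.0% lower, and the lowest adjusted p of a member was 0.299. At an unadjusted p under 0.05 there were 23 members and 2095 genes in all, and DESeq2 called 4 members higher and 0 lower, beside backgrounds of 0.703% and 0.305%. JAZ2 had a fitted log2 change of 2.81 ± 1.02 (SE, edgeR adjusted p = 0.419) and MPK3 one of 2.85 ± 1.38 (SE, edgeR adjusted p = 0.490), so standard errors above 1 log2 unit accompanied changes of nearly 3. These SE were derived from the F test, so they restate it and are no separate measure of spread. Fitted alone against MT, 156OE replicate 2 had all 136 members called higher and 0 lower, beside backgrounds of 8.16% and 2.48%, which is the contrast the rule used and is not a finding. An exact permutation test of 1 gene over 2 against 2 libraries could not give a two-sided p under 0.333. Both 156OE libraries lay above both MT libraries in 34 members (25%), beside a background of 16.2% of tested genes, and the rule fixed 1 of the 2 libraries in that count.

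Members were spread over most chromosomes. Chromosome 6 held 22, chromosome 2 19, chromosome 1 16, chromosome 8 15 and chromosome 10 14, and none lay on chromosome 5, which has 2382 of the genes in the files. In share of the genes on each, chromosome 6 had 0.795% and chromosome 12 0.164%. Members with consecutive IDs formed 6 pairs, and 26 members lay within 5 places of another in the ID order, in runs of at most 3. The median transcript length was 1299.5 bases for the members and 1497 bases for all tested genes. Estimated reads in 156OE replicate 2 differed from a whole number by more than 1e-06 for 70 members (51.5%), and for 34.8% of all genes with at least 20 CPM there, as occurs where Salmon divides reads among similar transcripts, so the values of members with close copies are less certain. This touched ERF-D3, ERF-F4, ERF3, NAC1, MPK3, CBF1, SRG2 and JAZ2 among the named ones.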

How the data were processed

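The deposited files hold expected counts, TPM and transcript lengths per gene ID, written by the authors with Salmon, per the file headers. The submitters' processing notes also list Trimmomatic, HISAT2, Picard and SAMtools. For versions, options and genome build: not given in the sources used here. CPM was each expected count divided by the library sum and multiplied by 1000000. The members and all gene lists were chosen with earlier results of these data known. Symbols were recalled and compared with the RefSeq table of assembly SLM_r2.1, requiring the same chromosome and a relative place in the gene order within 0.03. Of 223 IDs, 212 were in the files, 141 had their symbol in the table and 120 passed. Named are all members that passed, the top 2 IDs without a symbol, and the highest non-member of each list where it passed.

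Expected counts were rounded for edgeR 4.0.16 (TMM, filterByExpr, quasi-likelihood F test) and DESeq2 1.42.0, with Benjamini-Hochberg adjustment over all tested genes at 0.05, in R 4.3.3. The fits were tested on simulated counts. The SE given with an edgeR change is the size of that change divided by the square root of its F statistic. A pseudocount of 1 CPM was used on the log2 scale. Depth ranged from 1685657 to 11203505 reads, and intervals and floors of 3 reads cover counting error only. Alternatives covered the rule's unit, scaling, ratio and minimum, the tool, the filter, the replicate block and leaving out each library. Sequences are not used here.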

Additional observations from a re-analysis of the deposited data

How the results depend on the processing

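The number of members was 163 with TMM-scaled CPM, 158 with TPM (110 of them members under CPM), 180 and 95 at minima of 10 and 40 CPM, and between 140 and 176 when 1 of the other libraries was left out. It was 251 at a ratio of 3 and 62 at a ratio of 10. With 156OE replicate 1 in the high place 17 and 0 genes passed at those ratios, and TPM let 1 gene pass for each of MT replicate 1 and MT replicate 2. Of the members, 4 were called between 156OE and MT by DESeq2, and between 0 and 136 when a library was left out: 136 without 156OE replicate 1, 19 without 156OE replicate 2 and 0 without either MT library. RLE scaling and no low-count filter gave 0. For 156OE replicate 1 against MT, 43 members were called with no filter and 4 by DESeq2, where 19 were called with the filter in edgeR. Among these called members more were lower than higher with and without the filter, and as many were lower as higher by DESeq2. Over all genes, too, more were called in both directions with no filter and fewer by DESeq2. The change in count was thus not particular to the members. The causes were not tested. The median difference between MT replicate 1 and MT replicate 2, with alternatives chosen after seeing the data, was 0.57 and 0.27 at pseudocounts of 0.5 and 5 CPM. Same-numbered deviations from the genotype means correlated at -0.25, and the main fits did not pair libraries by replicate number. This correlation over the genes of 4 libraries cannot show whether replicates were harvested or processed together. With 2 libraries a genotype, opposite-numbered deviations necessarily correlate at the same size with a positive sign. The replicate block called 0 members, as did the crossed pairing, added after seeing the data. In 156OE replicate 2 the 3-read floor was 1.78 CPM.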
